A study of Mus musculus with 46 samples.

Results

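RNA levels of 9 genes that encode subunits of Polycomb repressive complex 1 (PRC1) were followed through the reprogramming of mouse fibroblasts to pluripotency. They were the chromobox genes Cbx2, Cbx6, Cbx7 and Cbx8, and the variant-complex genes Pcgf6, Mga, L3mbtl2, Rybp and Yaf2. They were taken by symbol, by a rule with no threshold on a measured value, though with earlier results of these data known, and all 9 were found among the 37108 genes of the gene table. In the second table they were covered by 50 of 106520 transcripts, which were summed by symbol into 35976 genes.

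The study compared the native pluripotency factor Nanog with a fusion of Nanog to an N-terminal stretch of SS18 that binds BRG1, the ATPase of the BAF chromatin remodelling complex. Mouse embryonic fibroblasts (MEFs) that carried the OG2 reporter, in which the Oct4 promoter drives GFP, received retroviral Oct4 together with either the fusion (NanogN70+Oct4, here NanogBiD) or native Nanog (Nanog+Oct4, here NanogWT). Both combinations therefore shared exogenous Oct4, and D0 was the end of the infection rounds, not an uninfected state. Messenger RNA libraries were sequenced at 8 time points from D0 to D12 (the text gives D0, D1, D3, D5, D7, D10 and D12, and D8 where NanogBiD had its only sample), with 2 samples for each other combination and day. Cells stood in the chemically defined iCD3 medium until about D7 and then in N2B27 with inhibitors and LIF, so later days also differ in medium. The 12 induced pluripotent stem cell (iPSC) samples, 6 from each combination, the 2 MEF samples and the 1 mouse embryonic stem (mES) cell sample completed the 46 samples. The mES sample is labelled OG2, the name of the reporter, and has no replicate. The labels mark the iPSC samples as iPSC1 or iPSC2 with a number that they do not explain, and 2 of them, 1# and 1#-2, may share an origin. Column headers add p5 or p6 for iPSC1, p2 for iPSC2 and MEF, and p20 for mES. If these are passages, passage cannot be told apart from iPSC1 against iPSC2. The labels do not say that same-day samples were separate cultures, so p-values measure only the spread between these samples, which may be technical.

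PRC1 places ubiquitin on histone H2A and compacts chromatin. In canonical PRC1 a Cbx protein reads the methyl mark left by Polycomb repressive complex 2, and the Cbx genes are known to be used differently by stem cells and differentiated cells. In variant PRC1 the Cbx place is taken by RYBP or its relative YAF2. One variant complex, PRC1.6, is built on PCGF6 with the very large DNA-binding protein MGA and the histone-binding protein L3MBTL2, and it is known to hold germline genes silent in embryonic stem cells through E-box and E2F sequences. These roles are background and were not measured here.

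Values are FPKM, fragment numbers scaled to transcript length and to library size, so that levels of different genes can be set side by side. The gene table held 34 samples (31 of the time course, MEF and mES), the transcript-level one held 15 (iPSC, MEF and mES), and levels were compared within a table. Differences were fitted by limma on log2(FPKM + 1), which understates the change of low genes. A gene passed the test where its p-value, adjusted by Benjamini-Hochberg over all genes tested, was under 0.05 and the difference was at least 1 on that log2 scale. The gene table held 370030 to 462190 summed FPKM per time-course library, and replicates correlated at 0.961 or more across genes, which are not independent replicates. Read totals were not available from FPKM, but the smallest steps in the values put the NanogWT libraries of D8 to D12 at 1.86 to 3.19 times the depth of a reference library, against 0.813 to 1.10 for the other 28. From D8 on, depth and combination cannot be told apart, while up to D7 depths were alike. The cells went by their labels: the summed FPKM of 10 fibroblast markers was 5759 to 6758 in MEF and 8.35 in mES, and that of 10 pluripotency markers was 0.365 to 1.50 in MEF and 3761 in mES. At D12 the fibroblast sum was 3016 to 3464 in NanogWT and 303 to 446 in NanogBiD, and the pluripotency sum was 171 to 246 and 1317 to 2342.

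RefSeq promoter windows (GRCm38.p6, from 250 bases before to 50 after the start) were found for 6 members, Cbx6, Cbx7, Cbx8, Pcgf6, Mga and L3mbtl2. The CG dinucleotide occurred 17 to 33 times per window of 300 bases, against a median of 7 over all 32851 windows of the table. Of all windows, 68.6% held fewer CG than that of L3mbtl2, 76.9% fewer than that of Pcgf6 and 91.4% fewer than that of Cbx7, so many other promoters are as rich. The Cbx7 window, with 33 CG, belongs to a transcript listed at 0 in every sample. That of Mga (chr2:119896978-119897277) lies inside the gene, which starts at 119872503. Of 20 member and germline windows checked, 17 had their bases after the start in a transcript. CG-rich starts are the kind of promoter on which PRC1 itself is known to sit. The windows of Cbx6 (chr15:79834284-79834583, minus strand), Pcgf6 (chr19:47050857-47051156, minus strand) and L3mbtl2 (chr15:81663639-81663938, plus strand) are shown because these members differed between the combinations at D12, with each CG in capitals.
Cbx6: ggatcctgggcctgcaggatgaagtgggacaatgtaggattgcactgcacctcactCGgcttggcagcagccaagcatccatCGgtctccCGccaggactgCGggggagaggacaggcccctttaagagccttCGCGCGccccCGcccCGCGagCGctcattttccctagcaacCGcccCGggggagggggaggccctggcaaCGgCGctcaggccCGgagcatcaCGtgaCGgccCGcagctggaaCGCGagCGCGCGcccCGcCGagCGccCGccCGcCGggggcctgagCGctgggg
Pcgf6: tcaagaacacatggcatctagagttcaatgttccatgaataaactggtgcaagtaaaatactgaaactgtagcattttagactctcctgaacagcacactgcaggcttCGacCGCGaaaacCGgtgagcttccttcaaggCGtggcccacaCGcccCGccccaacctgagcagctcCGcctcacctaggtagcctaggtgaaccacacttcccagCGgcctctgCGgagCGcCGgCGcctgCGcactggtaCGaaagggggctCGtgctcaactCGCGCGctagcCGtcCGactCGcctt
L3mbtl2: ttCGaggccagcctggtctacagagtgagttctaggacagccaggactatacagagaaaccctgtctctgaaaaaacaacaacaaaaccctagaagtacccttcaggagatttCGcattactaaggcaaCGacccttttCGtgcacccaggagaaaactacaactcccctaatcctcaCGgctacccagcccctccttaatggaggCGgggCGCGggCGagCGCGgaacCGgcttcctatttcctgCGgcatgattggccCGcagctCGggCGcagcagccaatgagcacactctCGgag
These windows held 31, 22 and 17 CG. Counting CG is a description of the letters and gives no methylation or binding.

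In established cells Cbx2, Cbx7 and the PRC1.6 core members were higher in iPSC samples than in MEF. Cbx6 was the most abundant of the 4 Cbx RNAs in both, and its level was lower in every iPSC sample by less than the fold limit. Of the 9 members, 6 rose and 1 fell in the 12 iPSC samples relative to the 2 MEF samples, in a comparison in which 40.7% of the 13312 genes tested passed. Among the 6, Cbx7 entered the test only through iPSC samples, so its call cannot be weighed against that share. The median log2 difference was 1.36 over the 9 members and 0.22 over all genes tested. Genes called higher and lower numbered 2914 and 2506, and 2363 and 2957 after scaling to a common total. In bulk samples, fewer cells of a type and less RNA per cell cannot be told apart.

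Cbx2 (chr11:119023019-119031275) encodes a canonical PRC1 subunit able to compact chromatin. Its transcripts summed to 2.67 and 3.52 FPKM in the MEF samples and to 7.15, 12.0 and 17.3 FPKM at the lowest, median and highest iPSC sample, with 14.4 FPKM in mES. The groups did not overlap, and the log2 difference was 1.68 ± 0.216 (SE, limma, adjusted p = 1.71e-05). Cbx6 (chr15:79823898-79834333), the most abundant of these Cbx RNAs in fibroblasts, went the other way. It stood at 33.1 and 28.0 FPKM in MEF, at 14.2, 16.1 and 19.3 FPKM in the iPSC samples and at 12.0 FPKM in mES. Every iPSC sample was below both MEF samples, but the log2 difference of -0.87 ± 0.113 (SE, limma, adjusted p = 1.73e-05) was under the fold limit, and it was past it after scaling to a common total (-1.09) or quantile normalization (-1.06).

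Cbx7 (chr15:79915804-79971143), known as the main Cbx of embryonic stem cells, was nearly silent in fibroblasts. The MEF samples held 0.0286 and 0.0479 FPKM, and the iPSC samples 0.685, 1.38 and 2.17 FPKM at the lowest, median and highest, with 1.23 FPKM in mES. The groups lay far apart, with a log2 difference of 1.19 ± 0.172 (SE, limma, adjusted p = 4.47e-05), and of 3.39 with a pseudocount of 0.1. Cbx7 met the filter of 1 FPKM only through iPSC samples, where it was high, so this p-value is no independent support. The Cbx7 level stayed well under that of Cbx2 and Cbx6 in every iPSC sample. Cbx8 (chr11:119036303-119040913), another canonical subunit, did not pass. Its 2.63 and 2.50 FPKM in MEF were above all iPSC samples, which spread from 0.0397 to 2.38 FPKM, and the log2 difference of -0.68 had a 95% confidence interval of -1.41 to 0.06.

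The 3 PRC1.6 members rose together. L3mbtl2 (chr15:81663889-81688315) had the largest of the 9 differences on log2(FPKM + 1), though not in the ratio of means or with a pseudocount of 0.1, where Cbx7 was larger. It went from 6.39 and 6.03 FPKM in MEF to 42.7, 61.6 and 82.3 FPKM at the lowest, median and highest iPSC sample (log2 difference 3.05 ± 0.186, SE, limma, adjusted p = 2.78e-08). Pcgf6 (chr19:47033617-47050939), which sets the identity of the complex, stood at 6.36 and 4.42 FPKM in MEF and at 22.0, 28.4 and 44.2 FPKM in the iPSC samples (2.30 ± 0.172, adjusted p = 1.56e-07). Mga (chr2:119872503-119970129) rose less, from 5.15 and 5.08 FPKM to 9.72, 15.2 and 21.1 FPKM (1.36 ± 0.217, adjusted p = 0.000102). In each case no iPSC sample reached down to the MEF level, and the ratios of means were 9.72, 5.53 and 2.93.

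Rybp and Yaf2, which encode related proteins that compete for the same place in variant PRC1, moved in opposite directions. Rybp (chr6:100228565-100287358) stood at 10.7 and 8.38 FPKM in MEF and at 35.4, 40.3 and 51.4 FPKM in the iPSC samples, with 47.3 FPKM in mES (log2 difference 2.00 ± 0.129, SE, limma, adjusted p = 4.30e-08). Yaf2 (chr15:93283833-93336935) stood at 14.8 and 14.6 FPKM in MEF and at 3.49, 4.69 and 8.00 FPKM in the iPSC samples (-1.39 ± 0.249, adjusted p = 0.000263). Yaf2 was the higher of the pair in both MEF samples and Rybp in all iPSC samples. In the gene table the MEF samples did not keep that order, with Rybp at 18.5 and 13.7 FPKM and Yaf2 at 15.2 and 15.4 FPKM.

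**Figure D1:**
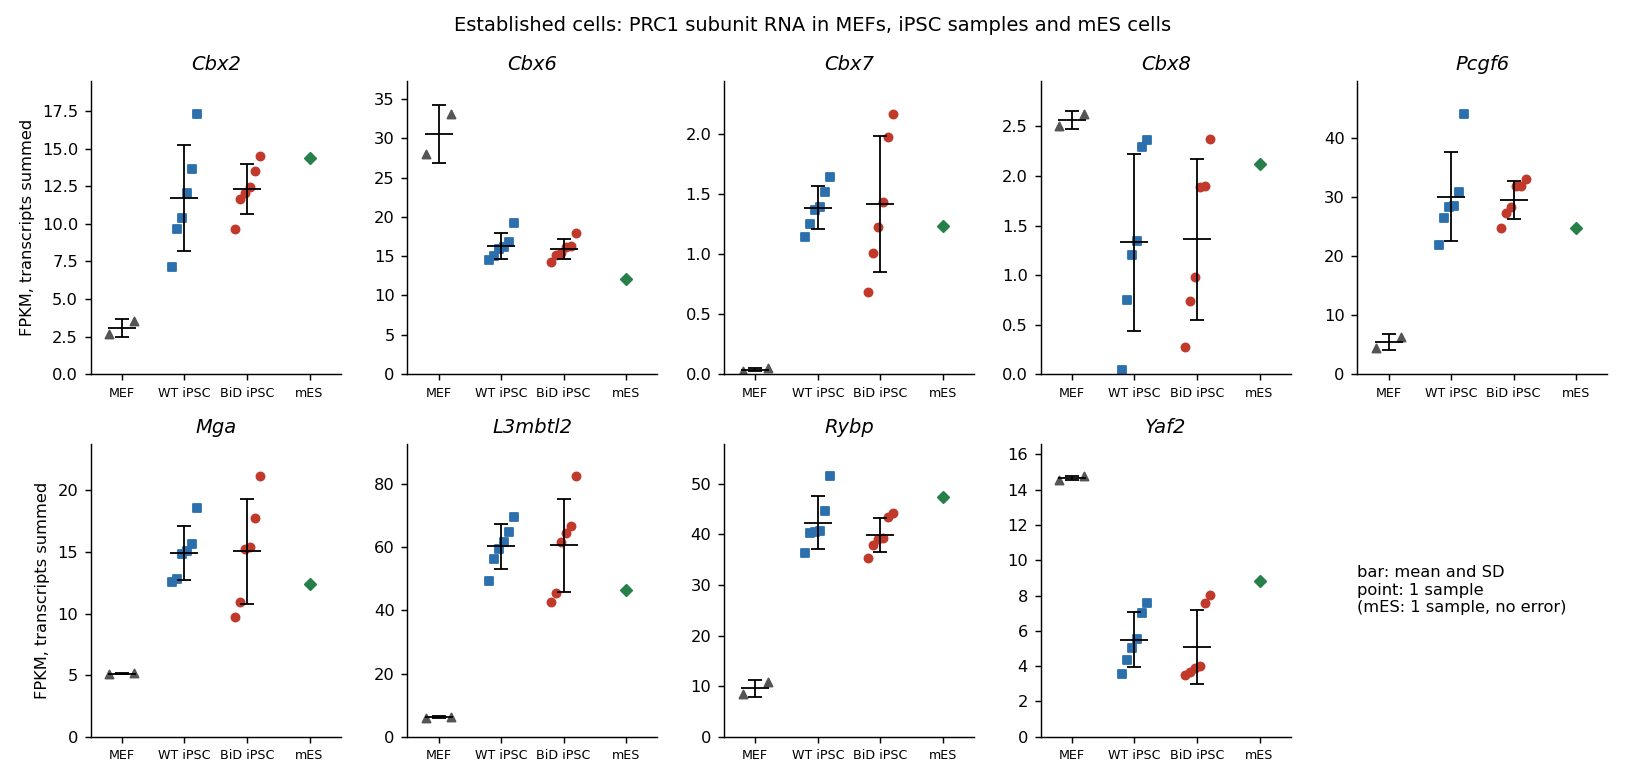
FPKM summed over transcripts (vertical axis, starting at 0) for each of the 9 genes in the 2 MEF samples, the 6 NanogWT and 6 NanogBiD iPSC samples and the mES sample, 1 point per sample, with bars of the mean and SD. Pcgf6, L3mbtl2, Rybp, Mga, Cbx2 and Cbx7 lie higher in all iPSC samples than in MEF, and Cbx6, Cbx8 and Yaf2 lie lower.

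Lines derived from the combinations did not differ detectably in these genes. None of the 9 members and none of 12456 genes passed between the 6 NanogBiD and the 6 NanogWT iPSC samples (0% by limma). An unadjusted p under 0.05 was found for 201 genes, a smaller share than the 0.05 that no difference would give on average. The 95% confidence intervals of the log2 differences were -0.29 to 0.47 for Cbx2, -0.23 to 0.14 for Cbx6, -0.31 to 0.23 for Pcgf6, -0.36 to 0.31 for L3mbtl2 and -0.29 to 0.11 for Rybp. The interval was widest for Cbx8, from -0.56 to 0.77. Among the iPSC samples, 1 NanogBiD iPSC1 sample kept a fibroblast marker sum of 1387 FPKM and the highest in NanogWT was 434.2 FPKM, where MEF held 6444 to 7348 FPKM. The share of these RNAs in the members' values was not tested.

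The transcripts behind these sums differed by gene. Cbx6 and Rybp each had 1 annotated transcript, and 95.4% of Cbx2 FPKM and 93.9% of Pcgf6 FPKM in the iPSC samples came from the curated coding transcript. For L3mbtl2 the main curated transcript made 98.6% of the MEF level and on average 86.8% of the iPSC level, where a second curated coding transcript, at 0 in MEF, made 11.3% on average and up to 58.1% in 1 sample. Cbx7 was the exception. Its curated coding transcript was listed at 0 in every sample, and 59.0% of its iPSC level on average came from a predicted coding transcript and 35.0% from a predicted non-coding one. The window read as the Cbx7 promoter belongs to the transcript listed at 0, so it is not shown. Mga was spread over 18 transcripts, and 22.1% of the Yaf2 level in iPSC samples came from a non-coding transcript, so its coding level is lower than the sum.

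During reprogramming NanogBiD came to hold more Cbx2, Pcgf6 and L3mbtl2 RNA and less Cbx6 RNA than NanogWT. Among the 8 members that reached 1 FPKM in at least 2 time-course samples (Cbx7 did not), 3 passed the test between the combinations at D7, 4 at D10 and 4 at D12, and none up to D5. Over the 16842 genes tested, 0.76% passed at D0, 1.33% at D1, 3.7% at D3, 6.48% at D5, 10.4% at D7, 27.8% at D10 and 23.4% at D12. At D7 the median log2 difference was 0.36 over the 8 members and 0.08 over all genes tested. The same medians were 0.67 and 0.10 for D10, and at D12 they were 0.70 and 0.17. The day comparisons used separate samples of each day but shared 1 estimate of the spread. Where both samples of 1 combination are said to lie above or below both of the other, this only describes the samples. At D0, 2 of the 9 members already lay above and 2 below in NanogBiD. The share of all genes that separate in this way was not counted.

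Pcgf6 was higher in both NanogBiD samples than in both NanogWT samples from D1 on, on every day compared. At D0 the samples read 3.44 and 4.68 FPKM in NanogBiD and 3.80 and 3.56 FPKM in NanogWT. At D3 NanogBiD had reached 8.13 and 9.15 FPKM (log2 difference 0.75, below the fold limit, with limma's adjusted p = 0.00535), and at D7 it held 10.1 and 13.6 FPKM against 3.73 and 4.46 FPKM (1.32 ± 0.165, SE, adjusted p = 6.02e-06). At D12 the values were 22.4 and 19.9 FPKM against 6.56 and 7.16 FPKM (1.49, adjusted p = 4.02e-07), a ratio of means of 3.08. NanogBiD at D12 was at 0.816 of the mES level of 25.9 FPKM.

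L3mbtl2 was higher in both NanogBiD samples than in both NanogWT samples on every day compared, starting from 4.23 and 3.61 FPKM against 3.17 and 3.55 FPKM at D0. At D5 the values were 10.5 and 9.56 FPKM against 4.64 and 4.42 FPKM, a log2 difference of 0.99 (limma, adjusted p = 0.000483) just under the fold limit. At D7 they were 11.8 and 10.2 FPKM against 5.43 and 4.53 FPKM, just over it at 1.01 (adjusted p = 0.000232). This D7 call was lost without NanogWT replicate 2 (0.90), without NanogBiD replicate 1 (0.91), after scaling to a common total (0.98), after quantile normalization (0.95) and after removal of trends over GC content and length (0.92). At D12 the levels were 21.4 and 16.5 FPKM against 7.48 and 7.82 FPKM (1.19, adjusted p = 1.40e-05). Unlike Pcgf6, the NanogBiD mean at D12 was 0.422 of the mES value of 44.8 FPKM.

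Cbx2 was low at the start in both combinations, at 0.842 and 1.27 FPKM in NanogBiD and 1.29 and 1.56 FPKM in NanogWT at D0, below the 2.23 and 2.96 FPKM of MEF. By D7 NanogBiD held 4.89 and 5.80 FPKM and NanogWT 1.70 and 1.37 FPKM (log2 difference 1.32 ± 0.249, SE, limma, adjusted p = 0.000457), which gave a ratio of means of 3.48. At D10 NanogBiD held 7.03 and 10.9 FPKM and NanogWT 1.89 and 4.17 FPKM (1.34), and at D12 the values were 7.30 and 7.52 FPKM against 3.71 and 2.50 FPKM (1.05, adjusted p = 0.00159). NanogWT varied most between its D10 and D12 replicates. The call was lost at D10 without NanogWT replicate 1 (0.92), and at D12 without NanogWT replicate 2 (0.84), after quantile normalization (0.97) and after removal of GC and length trends (0.86).

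Cbx6 was the member that passed as lower in NanogBiD than in NanogWT, at D10 and D12. Against D0 its log2 difference at D7 was -0.009 in NanogBiD and 0.65 in NanogWT. At D12 it was -0.58 in NanogBiD and 0.69 in NanogWT. None of these changes since D0 reached the fold limit in the main fit. NanogWT went from 40.0 and 40.0 FPKM at D0 to 75.3 and 53.0 FPKM at D7, 107 and 92.8 FPKM at D10 and 77.8 and 54.7 FPKM at D12. NanogBiD went from 29.7 and 37.1 FPKM at D0 to 39.9 and 27.3 FPKM at D7, 24.5 and 21.8 FPKM at D10 and 22.4 and 21.4 FPKM at D12, with 15.9 FPKM in mES. NanogBiD lay below NanogWT on each day compared. On D7 the log2 difference of -0.92 fell short of the fold limit (limma, adjusted p = 0.000992). It was -2.06 on D10 (adjusted p = 2.89e-08) and -1.53 on D12 (adjusted p = 1.42e-06). At D7 it was past the limit without NanogWT replicate 2 (-1.17) or NanogBiD replicate 1 (-1.18).

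Rybp, Mga and Cbx7 were higher in both NanogBiD samples than in both NanogWT samples at D7 and D12 without reaching the fold limit. For Cbx7 at D7 this rested on levels near 0, and its log2 difference with no filter on low values was 0.04. Rybp stood at 44.1 and 34.3 FPKM in NanogBiD and 19.1 and 23.7 FPKM in NanogWT at D12 (log2 difference 0.84, limma, adjusted p = 0.000369), after 0.95 at D10. Rybp was past the limit at D10 without NanogWT replicate 2 (1.01) or NanogBiD replicate 2 (1.16), and at D12 without NanogBiD replicate 2 (1.02). Mga stood at 11.2 and 10.9 FPKM against 6.46 and 7.90 FPKM (0.57, adjusted p = 0.0673). Cbx7 was at or under 0.137 FPKM in every NanogWT sample, and in NanogBiD it read 0.437 FPKM at D8, 0.346 and 0.0643 FPKM at D10 and 1.17 and 0.628 FPKM at D12. With no filter on low values its D12 log2 difference was 0.82 ± 0.105 (SE, adjusted p = 8.01e-06). Cbx8 did not separate at D12, at 1.91 and 0.933 FPKM in NanogBiD and 2.62 and 1.00 FPKM in NanogWT.

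**Figure D2:**
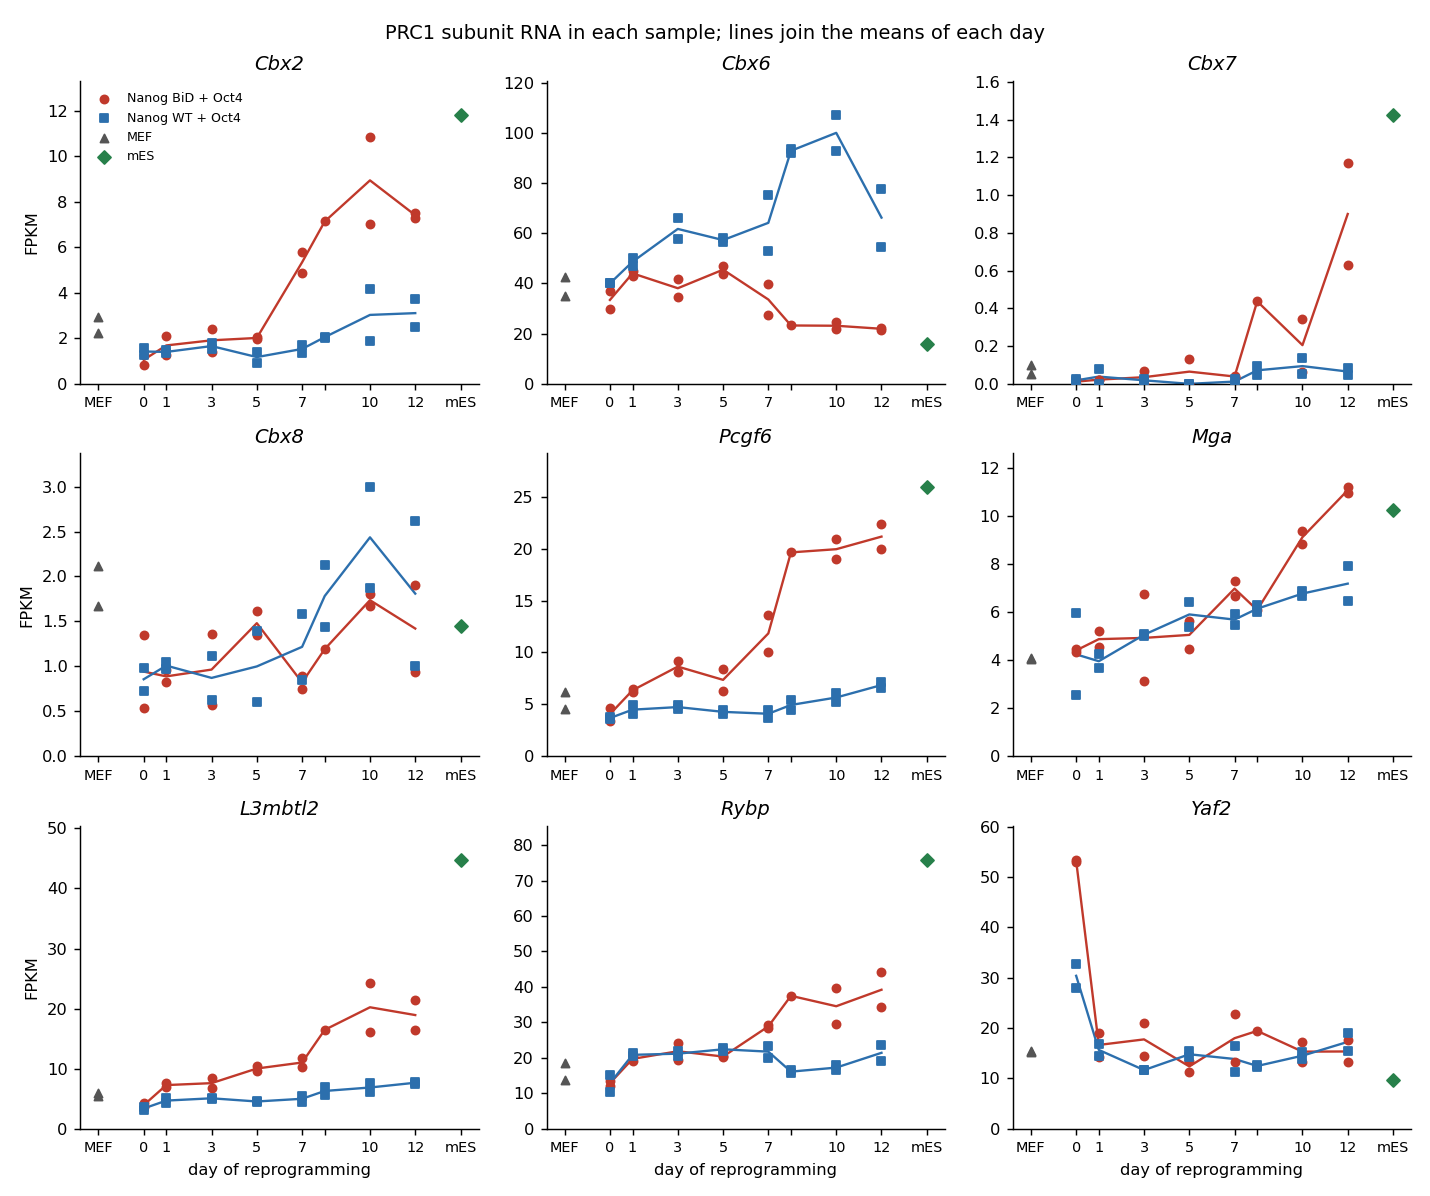
FPKM (vertical axis, starting at 0) of the 9 members by day of reprogramming (horizontal axis, with MEF and mES at the ends), 1 point per sample, and lines through the means of NanogBiD and NanogWT. Pcgf6, L3mbtl2, Cbx2 and Rybp climb in NanogBiD, Cbx6 climbs in NanogWT up to D10, and Yaf2 is high at D0 in both.

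**Figure D3:**
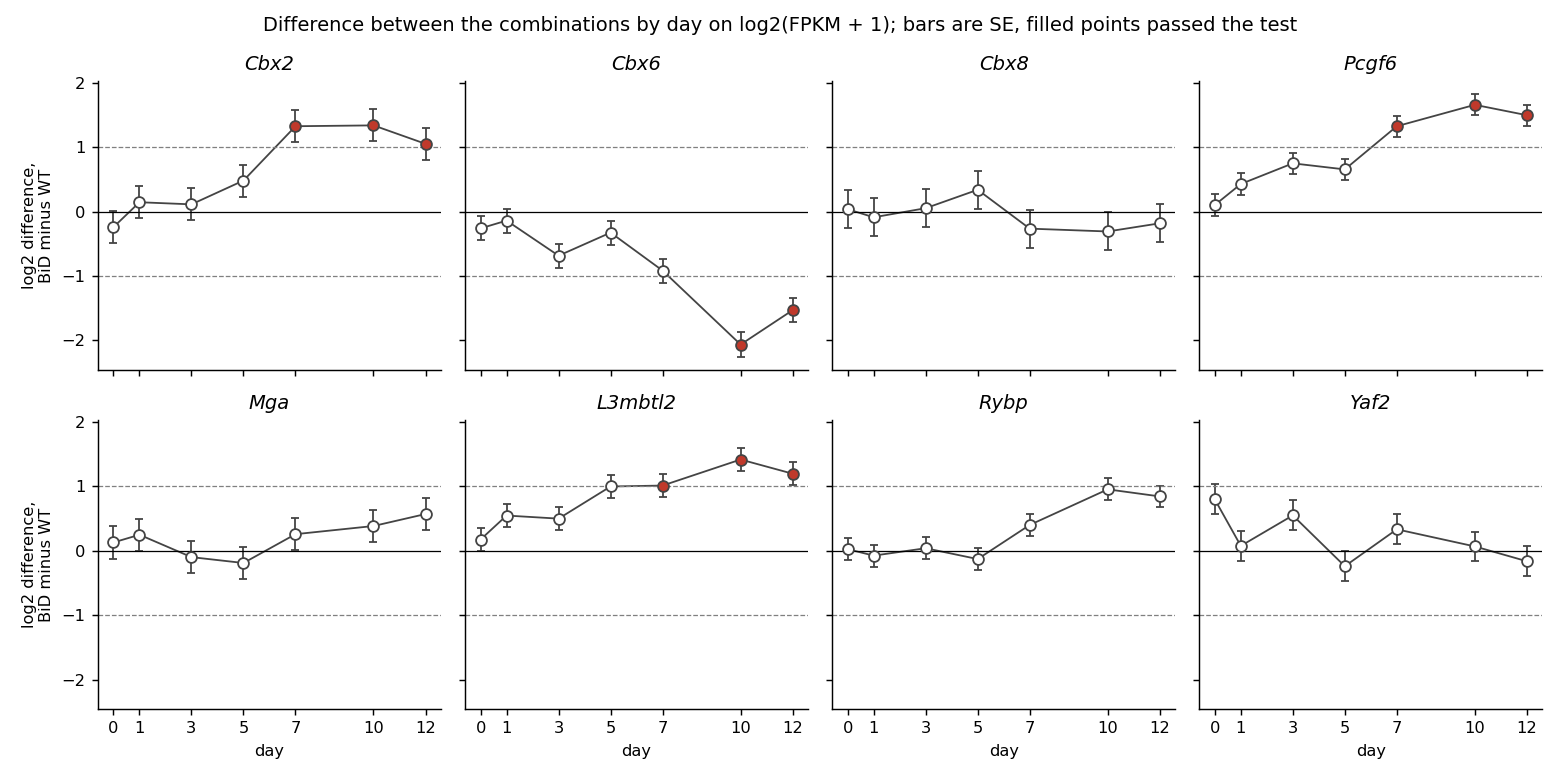
Log2 difference on log2(FPKM + 1), NanogBiD minus NanogWT, for the members tested (vertical axis) by day (horizontal axis), with bars of 1 SE and filled points where the test was passed. Pcgf6, L3mbtl2 and Cbx2 pass upward from D7, and Cbx6 passes downward at D10 and D12.

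Within NanogBiD, 6 of the 8 members changed between D0 and D12, in a comparison in which 34.7% of genes passed. Pcgf6 rose by 2.14 (limma, adjusted p = 1.45e-09), Cbx2 by 2.04 (7.62e-07), L3mbtl2 by 2.01 (8.78e-09), Rybp by 1.53 (2.02e-07) and Mga by 1.16 (0.000516), each on the log2 scale, and Yaf2 fell by 1.74 (2.28e-06). The log2 difference of Yaf2 was already -1.63 at D1 against D0. Its D12 level of 13.2 to 17.5 FPKM was near the 15.2 and 15.4 FPKM of MEF and above the 9.597 FPKM of mES. The call of Mga was lost after quantile normalization, at 0.79. The D0 samples also held more macrophage marker RNA. The sum of 5 such markers was 49.7 to 89.3 FPKM in NanogBiD at D0 and 5.68 to 7.80 FPKM at D12, and 49.1 to 138 FPKM and 7.34 to 21.1 FPKM in NanogWT. From D0 to D12, 2 of the 5 markers fell in NanogBiD and 3 in NanogWT. Their part in the changes since D0 was not tested. Cbx6 differed by -0.58, short of the limit, and by -1.18, past it, with GC and length trends removed. Between D0 and D7 in NanogBiD, 5 of 8 members had already changed against 18.8% of genes: Cbx2, Pcgf6, L3mbtl2 and Rybp rose and Yaf2 fell. The D7 calls of L3mbtl2 and Rybp were lost after quantile normalization (0.99 and 0.93) and with GC and length trends removed (0.93 and 0.94).

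Within NanogWT, none of the 8 members passed between D0 and D12 (16.2% of genes did). L3mbtl2 came nearest, at 0.99 (limma, adjusted p = 0.00017), and Cbx6 differed by 0.69, in the direction opposite to that in NanogBiD. Without the fold limit 7 of the 8 members passed here. The 16.2% does not apply to that setting, and its share of all genes is not given, so the count is not a result about the members. L3mbtl2 was past the limit without D0 replicate 2 (1.05) or D12 replicate 1 (1.02), and Mga without D0 replicate 2 (1.21). At D7, 1 of 8 passed (Yaf2, -1.10) against 17.7% of genes, and not without D0 replicate 1 (-0.99) or D7 replicate 1 (-0.84). The changes from D0 within NanogWT share their D0 samples with each other, as do those within NanogBiD. All genes leaned upward in these comparisons: calls higher and lower numbered 4138 and 1712 for NanogBiD at D12, 2055 and 666 for NanogWT at D12, 2135 and 1036 for NanogBiD at D7, and 2018 and 959 for NanogWT at D7. After quantile normalization they numbered 2631 and 2526, 1401 and 1025, 1446 and 1470, and 1601 and 1279. After it the median of all genes at D12 against D0 went from 0.34 to 0.01 in NanogBiD and from 0.19 to -0.02 in NanogWT, and the members' median in NanogBiD was 1.09.

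The change since D0 was itself compared between the combinations. At D7, 2 of the 8 members differed in their change, Cbx2 (1.57 on the log2 scale, limma, adjusted p = 0.00437) and Pcgf6 (1.22, adjusted p = 0.00118), where 10.1% of genes did. At D12, 4 members differed, Pcgf6 (1.39, adjusted p = 0.000118), Cbx2 (1.29, adjusted p = 0.00713), L3mbtl2 (1.02, adjusted p = 0.00334) and Cbx6 (-1.27, adjusted p = 0.00094), where 23.9% of genes did. The D12 call of L3mbtl2 was lost with GC and length trends removed (0.85), with a common total (0.93), and without NanogBiD D12 replicate 1 (0.84), NanogBiD D0 replicate 2 (0.93), NanogWT D0 replicate 2 (0.96) or NanogWT D12 replicate 1 (0.99). Yaf2 did not pass at D12 but was past the limit without NanogBiD D12 replicate 2 (-1.15), NanogWT D0 replicate 1 (-1.07) or NanogWT D12 replicate 1 (-1.10), and Rybp was without NanogWT D0 replicate 1 (1.06). The D7 call of Pcgf6 was lost when the compared groups were fitted alone (adjusted p = 0.0682).

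Yaf2 had its highest values at D0, just after infection. NanogBiD read 53.0 and 53.5 FPKM and NanogWT 32.8 and 28.0 FPKM, where MEF held 15.2 and 15.4 FPKM. By D1 the levels were 14.2 and 19.1 FPKM in NanogBiD and 14.5 and 16.8 FPKM in NanogWT. From D0 to D1, 1 of 8 members passed in NanogBiD (Yaf2, -1.63, limma, adjusted p = 3.27e-05, where 8.85% of genes passed) and none in NanogWT (Yaf2, -0.91, adjusted p = 0.0075, where 7.64% passed). This comparison was chosen after the D0 values were seen. The D0 difference between the combinations, 0.79, did not pass (adjusted p = 0.0866). The summed FPKM of the macrophage markers was 9.08 to 32.8 at D1 and 3.93 to 7.42 in MEF, below its D0 values, and its part in the Yaf2 values was not tested.

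Put as a share of the summed FPKM of the 4 Cbx members, Cbx2, Cbx6, Cbx7 and Cbx8, the make-up of NanogBiD at D12 lay between those of MEF and mES. In the gene table MEF RNA was 89.4% Cbx6, 6.10% Cbx2 and 0.175% Cbx7. NanogWT at D12 was 93.1% Cbx6 and 4.35% Cbx2. NanogBiD moved from 94.5% Cbx6 and 2.95% Cbx2 at D0 through 83.9% and 13.9% at D7 to 69.3% and 23.4% at D12, where Cbx7 made 2.81%. The mES sample was 52.0% Cbx6, 38.6% Cbx2 and 4.65% Cbx7. In the transcript table the 12 iPSC samples were 52.7% ± 6.33 Cbx6 and 38.6% ± 4.69 Cbx2 (SD), against 84.2% and 8.64% in MEF. The mES sample was 40.4% Cbx6 and 48.3% Cbx2 there, with Cbx6 below its lowest iPSC share of 45.6%. Shares were not tested. A share falls when the others rise, so it adds no evidence to the levels above, and the summed level itself was 71.2 FPKM in NanogWT and 31.7 FPKM in NanogBiD at D12.

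**Figure D4:**
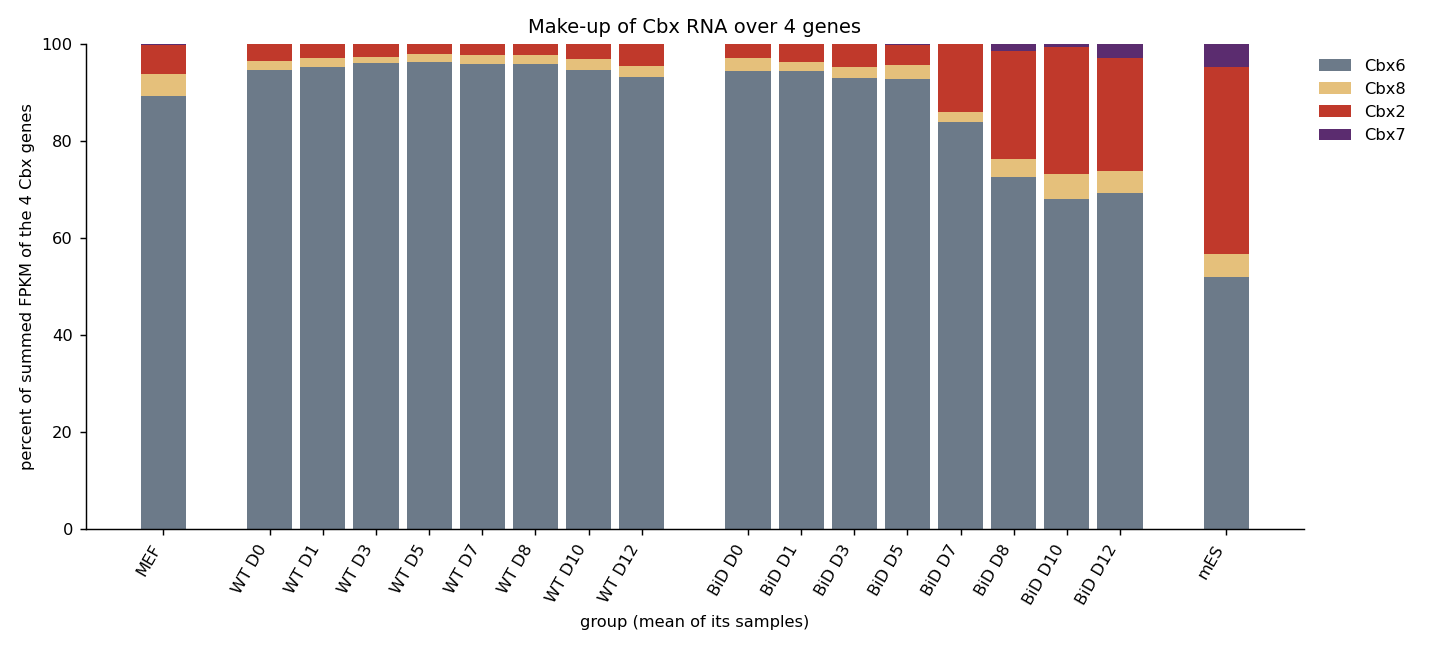
Percent of the summed FPKM of Cbx2, Cbx6, Cbx7 and Cbx8 (vertical axis, 0 to 100) in each group of the gene table, as the mean of the group's samples. Cbx6 takes 89.4% in MEF and 69.3% in NanogBiD at D12, and Cbx2 takes 6.10% and 23.4%.

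The other PRC1 genes were counted from lists. In iPSC samples relative to MEF, 40.7% of all genes tested passed. Counts near that share are not results about the lists. Of 7 catalytic and PCGF genes, 2 rose and 1 fell in iPSC samples relative to MEF: Rnf2, which encodes the E3 ligase RING1B, at 1.24, Pcgf2 at 1.15, and Bmi1, a PCGF subunit of canonical PRC1, at -1.003. Pcgf2 was lost without MEF replicate 2 (0.87), and Bmi1 without any of 6 samples, among them either MEF sample. Of 4 other canonical genes tested, 1 rose and 2 fell, and the Polyhomeotic genes split, with Phc1 at 2.59 against Phc2 at -2.03 and Phc3 at -1.37. Of 11 partners of variant complexes, 6 rose and none fell, led by Fbrsl1 at 2.86, Wdr5 at 2.66, Usp7 at 2.04 and Kdm2b, the CpG-island-binding subunit of a variant complex, at 2.00, then Skp1a at 1.28 and Csnk2a1 at 1.02, which was lost without MEF replicate 1 (0.91). Of 9 further PRC1.6 partners, 2 rose and 1 fell, Hdac1 at 2.35, Tfdp2 at 1.19 and E2f6 at -1.11. Values are log2 differences fitted as for the members.

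Between the combinations none of these lists had a gene that passed at D7 by limma, where 10.4% of all genes did. Without the fold limit 1 to 6 genes of each list did. The share of all genes without that limit is not given beside these counts. At D12 NanogBiD was higher in Phc1 (1.75), the 1 of 4 other canonical genes that passed. It was also higher in 5 of 11 variant partners, Wdr5, Csnk2a1, Fbrsl1, Usp7 and Kdm2b, at 1.13 to 1.46. Of all genes, 23.4% passed at D12, and the counts of these short lists were not tested against that share. Without NanogBiD replicate 1, Fbrsl1 was lost (0.96). None of 7 catalytic and PCGF genes and none of 9 further PRC1.6 partners passed. The median log2 difference was 0.92 for the variant partners and 0.42 for the PRC1.6 partners, where that of all genes was 0.17. Phc1 read 49.3 and 41.2 FPKM in NanogBiD and 11.5 and 14.1 FPKM in NanogWT at D12.

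PRC1.6 is known to act on germline genes, and a list of these was read in the same samples. Of 12 listed germline genes, 10 could be tested in established cells and 5 rose in iPSC samples relative to MEF: Hormad1 (3.02), Dazl (2.95), Stk31 (2.45), Mael (1.72) and Ddx4 (1.47), where 40.7% of all genes passed. That count was 8 without the fold limit and 10 with a pseudocount of 0.1. At D12, 6 of 8 tested were higher in NanogBiD than in NanogWT, where 23.4% of all genes passed: Dazl (2.96), Hormad1 (1.81), Stag3 (1.68), Smc1b (1.59), Stk31 (1.35) and Ddx4 (1.203), the last lost after quantile normalization (0.93). At D7 none of the 8 passed. Dazl, an RNA-binding factor of germ cells, read 17.0 and 9.22 FPKM in NanogBiD, 0.229 and 1.48 FPKM in NanogWT, 0 in both MEF samples and 9.08 FPKM in mES. Hormad1, a meiotic chromosome protein gene, read 3.93 and 2.25 FPKM against 0.109 and 0.185 FPKM. The meiotic cohesin gene Stag3 read 3.65 and 2.58 FPKM against 0.304 and 0.237 FPKM. Within NanogBiD 7 of 8 rose from D0 to D12, and within NanogWT 1 of 8 did, Tdrkh (1.34), where 34.7% and 16.2% of all genes passed. The NanogWT count was 0 after quantile normalization, 2 without the fold limit or without NanogWT D12 replicate 1, and 4 with a pseudocount of 0.1, which left the NanogBiD count at 7. All 8 genes tested reached 1 FPKM in both NanogBiD samples at D12, where 2 of the 12 did in both NanogWT samples. In established cells 0 did in both MEF samples. Genes could thus enter these tests through groups where they were high, so the counts cannot be weighed against the shares of all genes.

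**Figure D5:**
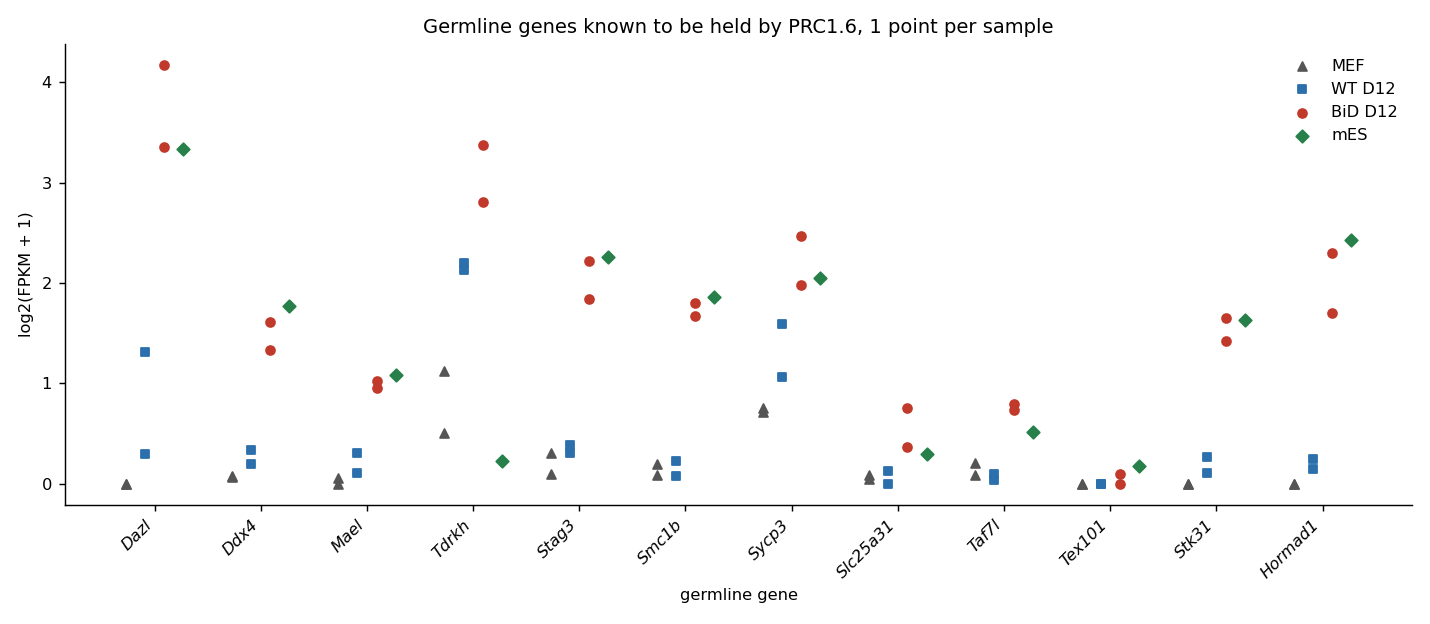
Level on log2(FPKM + 1) (vertical axis) of the listed germline genes (horizontal axis) in MEF, NanogWT at D12, NanogBiD at D12 and mES, 1 point per sample. Dazl, Hormad1, Stag3 and Ddx4 lie higher in NanogBiD at D12 than in NanogWT at D12.

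The promoters of the germline genes were searched for letters that PRC1.6 subunits are known to read. The E-box letters CACGTG and the E2F letters GCGGGAA were searched on both strands (the latter reads TTCCCGC on the other), and the motifs do not overlap in letters. The E-box was in 8 and the E2F letters in 6 of the 12 germline windows, and 5 held both. The windows of Dazl, which had the largest D12 difference of the list, Tdrkh and Tex101 held neither. Of all 32851 windows of the same length, 7.15% held the E-box, 4.6% the E2F letters and 0.457% both. Both motifs contain CG, and the germline windows held 15 to 38 CG against a median of 7 over all windows. The shares are thus not matched for CG. The genes were also listed as known to be held by PRC1.6, so the counts are no independent support. Among the 6 members with a window, 2 held the E-box (Cbx6 and Cbx8) and 0 the E2F letters. A match describes letters and is not a site. The windows of Ddx4 (chr13:112652261-112652560, minus strand), Stag3 (chr5:138280259-138280558, plus strand) and Hormad1 (chr3:95559427-95559726, plus strand) are shown because each held both motifs and each gene was higher in NanogBiD at D12, with the motifs in capitals.
Ddx4: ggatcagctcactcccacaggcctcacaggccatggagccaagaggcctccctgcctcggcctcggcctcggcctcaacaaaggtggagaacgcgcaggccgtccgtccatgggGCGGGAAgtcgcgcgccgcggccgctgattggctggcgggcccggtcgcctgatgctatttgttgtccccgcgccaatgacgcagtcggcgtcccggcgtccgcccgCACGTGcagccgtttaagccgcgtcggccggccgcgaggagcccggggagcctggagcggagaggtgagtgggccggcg
Stag3: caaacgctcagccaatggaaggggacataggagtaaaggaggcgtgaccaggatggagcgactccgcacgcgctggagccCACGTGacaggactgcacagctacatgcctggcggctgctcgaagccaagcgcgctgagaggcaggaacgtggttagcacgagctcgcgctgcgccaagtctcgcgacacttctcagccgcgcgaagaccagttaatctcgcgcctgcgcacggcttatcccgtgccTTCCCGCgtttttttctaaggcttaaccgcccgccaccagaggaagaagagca
Hormad1: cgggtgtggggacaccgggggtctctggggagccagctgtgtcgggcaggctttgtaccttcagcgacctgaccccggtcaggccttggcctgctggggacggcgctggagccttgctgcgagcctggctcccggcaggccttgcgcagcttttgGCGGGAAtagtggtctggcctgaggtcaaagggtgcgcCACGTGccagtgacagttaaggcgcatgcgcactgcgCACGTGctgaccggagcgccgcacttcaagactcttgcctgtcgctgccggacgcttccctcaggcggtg
Hormad1 held the E-box in 2 places.

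Across the 34 samples of the gene table, members moved with each other to different degrees. Pearson's r of log2(FPKM + 1) was 0.942 for Pcgf6 with L3mbtl2, 0.907 for Cbx2 with Pcgf6, 0.894 for Cbx2 with L3mbtl2 and -0.714 for Cbx6 with Pcgf6. The samples share combinations, days and depth, so these values are descriptions. The genes most like Cbx2 in pattern were Slc29a2 (0.952), Cbx1 (0.952) and Fzd9 (0.946), and those most like Pcgf6 were Cbx1 (0.964), Ppat (0.962) and Nr5a2 (0.958). For L3mbtl2 they were Parp1 (0.956), Wbp11 (0.955) and Urb1 (0.955), and for Cbx6 Ece1 (0.965), Lamb2 (0.963) and Gm20319 (0.954). Cbx7 was most like 4930461G14Rik (0.965), Acap1 (0.965) and Uba1y (0.962), and Mga like Rsf1 (0.919), Zfp292 (0.918) and Zfp318 (0.918). Rybp was most like its processed copy Rybp-ps (0.954), then Bag4 (0.941) and Mtf2 (0.938), and Yaf2 was most like Mindy3 (0.898), Fam188a (0.896), an older name of that gene, and Hccs (0.889). Cbx8 had no close companion, with Inafm1 (0.819), 2410006H16Rik (0.781) and LOC114841036 (0.78) at the top.

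The Cbx genes lie near each other in the genome (GRCm38.p6). On chromosome 15, Cbx6 and Cbx7 are 81470 bases apart with 1 gene, D730005E14Rik, between them, and at D12 Cbx6 was lower and Cbx7 higher in NanogBiD than in NanogWT. On chromosome 11, Cbx2 lies 5027 bases from Cbx8, which did not pass in any comparison between the combinations. Some members overlap other genes, and since the use of strand in counting is not stated, reads could be split or shared between them. Npcd, which overlaps Cbx6, read 7.16 to 10.3 FPKM in NanogBiD and 9.94 to 11.7 FPKM in NanogWT at D12. Apobec3, which overlaps Cbx7, read 0.222 to 0.275 FPKM in MEF, 0.379 to 1.12 FPKM in NanogBiD at D12 and 0.743 FPKM in mES, so the low Cbx7 values are uncertain. Rybp-ps, at 13.2 to 18.8 FPKM in NanogBiD at D12 and 28.8 FPKM in mES, may have shared reads with Rybp, whose level is uncertain to that extent. Chadl, which overlaps L3mbtl2, was low but followed the same order of groups, at 0.564 to 0.841 FPKM in MEF, 0.660 to 0.757 FPKM in NanogWT and 1.05 to 1.75 FPKM in NanogBiD at D12, and 2.48 FPKM in mES, and its part in the L3mbtl2 values was not tested.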

How the data were processed

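RNA sequencing of 46 samples was read from the deposited tables. Per the submitters' processing notes, the authors used Trim Galore 0.6.4, HISAT2 2.2.1 and StringTie 2.2.1 on the mouse build mm10. The authors deposited FPKM per gene symbol (34 samples) and FPKM per transcript (15 samples), with no read counts, so depth is known only relative to other libraries and no counting interval is given. The annotation release and the strand setting are not given in the sources used here. GFOLD results of the study were not used.

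Transcripts were summed by symbol. A gene was kept where 2 or more samples reached 1 FPKM: 16842 in the time course, 13312 for iPSC against MEF and 12456 among iPSC samples. log2(FPKM + 1) was fitted by limma 3.58.1 in R 4.3.3, with 1 model of 16 groups for the time course, and p-values were adjusted by Benjamini-Hochberg. NanogBiD at D8, with 1 sample, entered no test. Figures and summaries used Python 3.11.15. Scripts were tested on simulated data. All 9 members were named in every comparison, and genes of other lists by largest absolute log2 difference, at most 6 per list, where they passed in iPSC against MEF or between combinations at D7 or D12. Additional genes named for their promoter letters, overlap or position, and the 1 germline gene that passed within NanogWT, were chosen after values were seen. For likeness, the 3 genes with the highest r were named.

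Members and lists were chosen with earlier results of these data known. Alternatives were another pseudocount (0.1), no filter, no fold limit, a common total, quantile normalization, a fit of the compared groups alone, a replicate block and leaving out each sample. Removal of GC and length trends and the D1 against D0 comparison were chosen after seeing the data. Promoter windows are RefSeq, GRCm38.p6. One listed gene is not reported here.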

Additional observations from a re-analysis of the deposited data

Results flagged for a closer look

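The 9 members were read in 3 groups of iPSC samples, the 4 of NanogWT iPSC1, the 6 of NanogBiD and the 6 of NanogWT. Of these 27 readings, 1 had a sample far from the rest, where chance gives about 1 in 20. The NanogWT iPSC1 samples are also among the 6 of NanogWT. Rybp in the NanogWT iPSC1 sample 1#-2 read 44.6 FPKM, and its gap to the nearest of the other 3 samples was 0.924 of the range of the group, above Dixon's critical value of 0.829.

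The change since D0 differed between NanogBiD and NanogWT, by limma's test of the difference itself, for Cbx2 at D7 (1.57 on the log2 scale, NanogBiD minus NanogWT), Pcgf6 at D7 (1.22), Cbx2 at D12 (1.29), Cbx6 at D12 (-1.27), Pcgf6 at D12 (1.39) and L3mbtl2 at D12 (1.02).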

How the results depend on the processing

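Of 228 counts of members called under alternatives over 17 comparisons, 205 stayed within 1.5 times the main count. Of 1864 single-member values, 1786 kept their side of the threshold, 25 lost the call and 53 gained it. Direction was followed only where a call was made, and 0 of those reversed. Values without a call could change sign. Cbx8 between the combinations at D0, at 0.036 in the main fit, ranged from -0.27 to 0.34. Without the fold limit, members called numbered 2 at D3 and 2 at D5 between the combinations, 4 for NanogBiD and 2 for NanogWT at D1 against D0, and 4 and 7 for NanogWT at D7 and D12 against D0. The shares of all genes given above are those of the main setting, not of these alternatives. With a pseudocount of 0.1 they numbered 1 at D5 between the combinations and 2 for NanogWT at D12 against D0. For NanogBiD at D7 against D0 they numbered 3 with quantile normalization and 3 with GC and length trends removed, which also gave 1 for NanogWT at D1 against D0. A common total gave 0 for NanogWT at D7 and 1 at D12 against D0, and fitting the compared groups alone gave 0 for NanogWT at D7 and 1 for the D7 difference in change. The cause was not tested. Leaving out single samples gave 0 to 1 at D5 between the combinations, 0 to 1 for NanogWT at D1 and at D7 and 0 to 2 at D12 against D0. L3mbtl2 at D5 was past the limit without NanogWT replicate 1 (1.02) or NanogBiD replicate 2 (1.05), and Yaf2 in NanogWT at D1 without D0 replicate 2 (-1.03) or D1 replicate 2 (-1.01). With the replicate block the members called numbered 3 at D7 and 4 at D12 between the combinations, and it changed no member's call. Same-numbered samples deviated together at r = 0.395 at D7 but at -0.0647 at D3, so the numbers are not shown to pair samples. Over the other PRC1, germline and Ink4 lists, alternatives added later reversed no called gene. With 2 samples a group and no read counts, differences under the fold limit and levels near 0 are poorly resolved.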

Other observations

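The Ink4 locus, which encodes cell cycle inhibitors and is a known target of Cbx7 and Bmi1 in fibroblasts, was read in the same samples. Cdkn2b, which encodes p15, read 5.90 and 6.37 FPKM in NanogBiD and 32.2 and 25.2 FPKM in NanogWT at D12 (log2 difference -2.05 by limma), 52.2 and 51.9 FPKM in MEF and 3.51 FPKM in mES. It fell by 3.09 on the log2 scale in iPSC samples relative to MEF. Its neighbour Cdkn2a rose within NanogWT from D0 to D12 and did not pass between the combinations at D12, at 35.0 and 27.0 FPKM in NanogBiD and 56.6 and 43.8 FPKM in NanogWT, and read 22.6 and 20.4 FPKM in MEF and 38.4 FPKM in mES.

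Markers of other early lineages were read beside the pluripotency markers. The summed FPKM of 5 trophoblast markers was 25.6 to 36.7 in NanogBiD and 1.68 to 3.77 in NanogWT at D12 and 24.5 in mES. Between the combinations 2 of the 3 tested passed, where 23.4% of all genes did. At D12, 2 of the 5 reached 1 FPKM in both NanogBiD samples and 0 in both NanogWT samples, so the filter favoured markers high in NanogBiD. The sum of 5 primitive endoderm markers was 0.863 to 1.65 and 1.74 to 1.85 at D12, and none of the 2 tested passed by limma.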
